A study of Mus musculus with 10 samples.

Results

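A set of 8 channel genes was followed among the 33502 genes counted in nuclei from the PVT of mice (the paraventricular thalamic nucleus, a thin midline strip) and from the tissue around it. They are the 8 members of the calcium- and sodium-activated potassium channels chosen by symbol, *Kcnn1*, *Kcnn2*, *Kcnn3*, *Kcnma1*, *Kcnmb2*, *Kcnmb4*, *Kcnt1* and *Kcnt2*, with earlier results of these data known. Single nuclei were sequenced from tissue punches of C57BL/6J mice aged 12 weeks, and the labels name no treatment. The methods state that 4 mice were pooled for each sample, but they count only 4 biological replicates. Whether every library was pooled in this way is not given there. Of the 10 libraries, 6 are labelled female (female 1 to 6), whereas the labels of the other 4 give no sex. The deposited metadata give male for every nucleus of those 4, which are called male 1 to 4 below. Where mice were pooled, no value belongs to a single animal, and the library is the unit of replication.

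These channels let potassium leave the cell when calcium or sodium has risen inside it, which hyperpolarizes the membrane after activity. Small-conductance (SK) channels, encoded by *Kcnn1* to *Kcnn3*, open through calmodulin bound to the channel and carry the medium afterhyperpolarization that follows action potentials. The large-conductance (BK) channel, whose pore is encoded by *Kcnma1*, needs calcium together with depolarization and helps to end the action potential, and its auxiliary β subunits, encoded by *Kcnmb2* and *Kcnmb4*, alter its gating. *Kcnt1* and *Kcnt2* encode the sodium-activated channels Slack and Slick. Thalamic neurons fire in tonic or burst mode, and afterhyperpolarizing currents of this kind shape both.

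The deposited matrix holds 20503 nuclei with a cell type each, of which 10410 are neurons. The median UMI count per neuron, where a UMI is 1 captured RNA molecule, was 5666 to 9770 in the female and 12586 to 21085 in the male libraries, and the male counts hold no mitochondrial UMIs (562659 in the female libraries), so that sex, depth and processing cannot be told apart. All 8 genes were counted in both sets. Of the cell barcodes, 46 occur in more than 1 library. Male 4 stood apart: 3 neuron markers (*Rbfox3*, *Snap25* and *Syt1*) reached 20.6% to 53.7% of their neuronal level in its non-neuronal types and were highest there in 6 of 7 such types. All 24 markers of the deposited types were highest in the type they mark.

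Neurons with more than 1000 genes (10307 nuclei) were clustered anew without the 8 genes and their listed partners, and clusters were sorted by the gene that marks each region. The C1ql3 group held 5685 nuclei and keeps its gene name. The Gad2 group (937 nuclei) led for 4 of 4 GABAergic markers, and the Nwd2 group (869 nuclei) for 5 of 5 markers of the habenula, the nucleus beside the PVT. The Adarb2 group (944 nuclei) led for only 1 of 3 mediodorsal thalamic markers and also keeps its gene name. In these 3 groups the sorting marker is among those counted and leads by the rule, so that only the others bear on a name. A remainder of 1872 nuclei in 2 clusters stayed unassigned, and the larger of these, with 1106 nuclei, had *C1ql3* at 0.391 of the highest cluster, just below the limit of 0.4, whereas the 2 clusters inside it had 0.999 and 1. Within the C1ql3 group, 793 nuclei formed the Col12a1, 948 the Cadps2 and 829 the Npsr1 subtype. The other 3115 were unassigned, with *Col12a1* at 0.308 of the highest cluster in the nearest of their 4 clusters.

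*Kcnmb2* and *Kcnt2* had the largest log2 fold changes of the members in the Col12a1 subtype of the C1ql3 group, and their upstream stretches are shown because the 2 genes shared this subtype. Each stretch has 189 bases on the + strand, from 250 to 62 bases before the transcription start of the RefSeq promoter table (chr3:31902453-31902641 for *Kcnmb2* and chr1:140245468-140245656 for *Kcnt2*). In both genes that start lies inside the annotated span given below, and the *Kcnt2* stretch ends just before its span. The capitals mark CG dinucleotides, which read the same on both strands.
Kcnmb2: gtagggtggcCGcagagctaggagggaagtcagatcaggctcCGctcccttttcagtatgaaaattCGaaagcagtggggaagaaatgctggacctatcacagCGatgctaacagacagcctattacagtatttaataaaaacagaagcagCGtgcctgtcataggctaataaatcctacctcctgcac
Kcnt2: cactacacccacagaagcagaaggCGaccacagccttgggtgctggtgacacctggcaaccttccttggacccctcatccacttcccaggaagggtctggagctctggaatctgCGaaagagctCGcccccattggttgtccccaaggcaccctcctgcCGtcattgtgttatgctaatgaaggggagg
The *Kcnmb2* stretch held 5 CG dinucleotides and the *Kcnt2* stretch 4, and the median over all 32851 promoters of the table in the same window was 4. At least as many as in *Kcnmb2* were found in 45.2% of the promoters and at least as many as in *Kcnt2* in 52.0%. Nothing about binding or methylation was measured in these samples.

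The 8 genes lie on 7 chromosomes (RefSeq, GRCm38.p6): *Kcnt2* at chr1:140245657-140614045, *Kcnt1* at chr2:25863791-25918273, *Kcnmb2* at chr3:31901861-32200180, *Kcnn3* at chr3:89520164-89672494, *Kcnn1* at chr8:70843158-70865691, *Kcnmb4* at chr10:116417861-116473859, *Kcnma1* at chr14:23292288-24005110 and *Kcnn2* at chr18:45268750-45685887. They span from 22.5 kb (*Kcnn1*) to 712.8 kb (*Kcnma1*).

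To ask how the channels differ between the neurons captured in and around the PVT, UMIs were summed per library and neuron group and each group was compared with the mean of the other 4 on the log2 scale. Levels are given as CPM (UMIs of a gene scaled to 1000000 UMIs in the sum), mean ± SD over 10 libraries unless another number is stated, and a gene is called where the adjusted p of edgeR's quasi-likelihood test is under 0.05 and the log2 fold change exceeds 0.5 in size. *Kcnma1*, the BK pore, had the largest log2 fold change of the members. It stood at 13802 ± 5709 CPM in the habenula-like Nwd2 group (lowest 9308, median 11125, highest 25814), and the highest value of any library in the other groups was 2299 CPM. The groups did not overlap, and the Nwd2 group was higher in 10 of 10 libraries (log2 fold change 3.49, SE 0.07, adjusted p = 1.2e-42). The other groups followed at 1593 ± 153 CPM (Adarb2), 1154 ± 181 CPM (unassigned), 1101 ± 184 CPM (C1ql3) and 1004 ± 479.9 CPM (Gad2). In that order the unassigned and the C1ql3 group were not told apart (adjusted p = 0.7), nor were the C1ql3 and the Gad2 group (adjusted p = 0.17).

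A small group held much of the neuronal *Kcnma1*. The Nwd2 group made up 11.0% ± 7.91 of the clustered neurons of a library and 42.4% ± 21.6 of their *Kcnma1* UMIs. Both shares were largest in male 1, at 24.8% and 76.7%, which was also the library with the highest *Kcnma1* over all its neurons (7160.2 CPM) and in the Gad2 group (2299 CPM, from 14 nuclei). The clusters deposited by the authors, which do not rest on the new clustering, were read as well, and *Kcnma1* averaged 13407 CPM in the cluster named Neurons (6) and 924 to 1566 CPM in the 7 others. Neurons (6) held 917 nuclei and the Nwd2 group 869, out of the same data. The methods name no gene left out of the authors' clustering, so these values are not independent support.

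The auxiliary BK subunits were ordered differently from the pore. *Kcnmb4* was 82.9 ± 13.0 CPM in the Adarb2 group (lowest 60.6, median 84.7 and highest 99.8 CPM; log2 fold change 0.93, SE 0.10, adjusted p = 1.4e-11), 77.6 ± 11.8 CPM in the unassigned group (log2 fold change 0.86, SE 0.10, adjusted p = 4.7e-11) and 76.0 ± 30.9 CPM in the Nwd2 group (log2 fold change 0.64, SE 0.12, adjusted p = 8.3e-06). These 3 were not told apart from their neighbours (adjusted p = 0.77 for Adarb2 against unassigned, adjusted p = 0.24 for unassigned against Nwd2). The C1ql3 group was lower at 33.3 ± 4.78 CPM (lowest 25.8, highest 38.7; log2 fold change -0.63, adjusted p = 1.4e-07), and the Gad2 group was lowest at 17.1 ± 8.78 CPM (log2 fold change -1.80, adjusted p = 2.7e-14). Every library of the C1ql3 group lay below every library of the Adarb2 group. *Kcnmb2*, by contrast, was high in the Gad2 group, 162 ± 91.1 CPM (log2 fold change 0.72, SE 0.14, adjusted p = 1.5e-05), where libraries ranged from 57.0 to 359 CPM, and in the Adarb2 group, 152 ± 40.6 CPM (log2 fold change 0.61, SE 0.12, adjusted p = 2.5e-05). It was lower in the C1ql3 group, 76.2 ± 11.0 CPM (log2 fold change -0.63, SE 0.11, adjusted p = 6.8e-06), and was 93.0 ± 24.8 CPM in the unassigned and 85.2 ± 23.5 CPM in the Nwd2 group, neither of which was called. The last 3 groups could not be ordered (unassigned against Nwd2 adjusted p = 0.45; Nwd2 against C1ql3 adjusted p = 0.51).

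Among the SK genes, *Kcnn2* and *Kcnn3* were ordered differently. *Kcnn2* was highest in the Nwd2 group at 390.1 ± 89.3 CPM (lowest 279.7, median 375, highest 562; log2 fold change 1.05, SE 0.06, adjusted p = 3.2e-22) and lowest in the Adarb2 group at 129 ± 28.8 CPM (highest 201; log2 fold change -0.96, SE 0.07, adjusted p = 8.7e-19), with no overlap between these 2. The C1ql3 group lay between them at 249.6 ± 41.8 CPM, followed by 214 ± 36.2 CPM in the Gad2 and 192 ± 38.7 CPM in the unassigned group. The last 2 were not told apart (adjusted p = 0.18). *Kcnn3* was highest where *Kcnn2* was lowest: the Adarb2 group had 269 ± 32.9 CPM (lowest 223, median 267 and highest 338 CPM; log2 fold change 0.74, SE 0.06, adjusted p = 3.6e-15), and the Gad2 group the least, 102 ± 32.8 CPM (log2 fold change -0.99, SE 0.08, adjusted p = 1.8e-15). Every library of the Adarb2 group, from 223 CPM, lay above every library of the Gad2 group, up to 162 CPM. The unassigned, Nwd2 and C1ql3 groups had 203 ± 40.7 CPM, 195 ± 66.1 CPM and 165 ± 21.9 CPM, and none of them was called. Of these 3, the unassigned and the Nwd2 group were not told apart (adjusted p = 0.44). *Kcnn1* was scarce, with 257 UMIs in all neurons, and did not pass the filter on low counts. It was 6.09 ± 5.27 CPM in the Nwd2 group, from 37 UMIs, and 1.70 ± 0.854 CPM in the C1ql3 group, and a fit without the filter called the Nwd2 group higher (log2 fold change 1.15, SE 0.32, adjusted p = 0.0013).

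Both sodium-activated channel genes were lowest where the BK pore was highest. *Kcnt2* (Slick) was lowest in the Nwd2 group at 30.5 ± 29.3 CPM (median 22.9, highest 80.4; log2 fold change -3.38, SE 0.17, adjusted p = 3.6e-25). In 1 of its libraries, female 6, 13 nuclei held 0 UMIs, a count that allows up to 57.8 CPM. All other groups lay above 132 CPM in every library, so that the Nwd2 group overlapped none of them. The unassigned group had the most, 480.1 ± 71.1 CPM (log2 fold change 1.62, SE 0.10, adjusted p = 1.9e-20), followed by the C1ql3 group with 339.9 ± 52.1 CPM (log2 fold change 1.01, SE 0.10, adjusted p = 2.8e-13) and the Adarb2 group with 309 ± 74.4 CPM (log2 fold change 0.81, SE 0.10, adjusted p = 1.7e-09), and the latter 2 were not told apart (adjusted p = 0.28). Each of these groups was set against a mean that includes the Nwd2 group, whose low level raises their fold changes. The Gad2 group had 189.9 ± 74.6 CPM, without a call. *Kcnt1* (Slack) was also lowest in the Nwd2 group, 19.4 ± 9.34 CPM (log2 fold change -1.11, SE 0.13, adjusted p = 1.9e-10), but was highest in the Gad2 group, 60.7 ± 12.8 CPM (log2 fold change 0.91, SE 0.10, adjusted p = 1.4e-10). The unassigned, C1ql3 and Adarb2 groups had 45.7 ± 8.03 CPM, 40.4 ± 8.99 CPM and 30.7 ± 7.55 CPM, with no call, and the first 2 were not told apart (adjusted p = 0.37).

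Counted over the 7 members that passed the filter on low counts, with the share of all 11255 genes tested that was called in the same direction as background, the groups compared as follows. In the C1ql3 group 1 member was higher (background 11.5%) and 3 were lower (background 6.63%), with a median log2 fold change -0.12 against -0.01 over all genes tested. In the Adarb2 group 4 were higher (background 13.7%) and 1 was lower (background 19.3%), with a median log2 fold change 0.61 against -0.05 over all genes tested. The Gad2 group had 2 higher (background 13.1%) and 3 lower (background 8.15%), with a median log2 fold change -0.08 against 0.03 over all genes tested. The Nwd2 group had 3 higher (background 21.4%) and 2 lower (background 20.8%), with a median log2 fold change 0.13 against 0.05 over all genes tested, and the unassigned group had 2 higher (background 9.76%) and 1 lower (background 5.44%), with a median log2 fold change 0.23 against -0.03 over all genes tested. Outside the Nwd2 group, the calls for *Kcnma1* and *Kcnt2* were made against a mean that includes the extreme level of that group. The calls number 22 in all, and there were 22 without male 4. Of these, 14 kept direction and call under every alternative run. When clusters needed only 0.25 of the highest marker level, the C1ql3 group lost its calls for *Kcnmb2* and *Kcnmb4* (log2 fold changes -0.43 and -0.30). When each nucleus was sorted by its own marker UMIs in place of clusters, *Kcnmb4* in the unassigned group changed sign (log2 fold change -0.11), and calls were lost for *Kcnmb2* in the C1ql3 group and for *Kcnt1* and *Kcnn3* in the Gad2 group (log2 fold changes -0.40, 0.28 and -0.22). With nuclei under 1 percent mitochondrial UMIs, the calls for *Kcnt2* in the Adarb2, *Kcnmb2* in the Gad2 and *Kcnmb4* in the Nwd2 group were lost (log2 fold changes 0.32, 0.44 and 0.47), the last also with the male libraries only (log2 fold change 0.39). The mitochondrial limit kept 8760 of the 10307 neurons, which were clustered again. As the male counts hold no mitochondrial UMIs, by the counts this limit can remove only female nuclei.

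**Figure D1:**
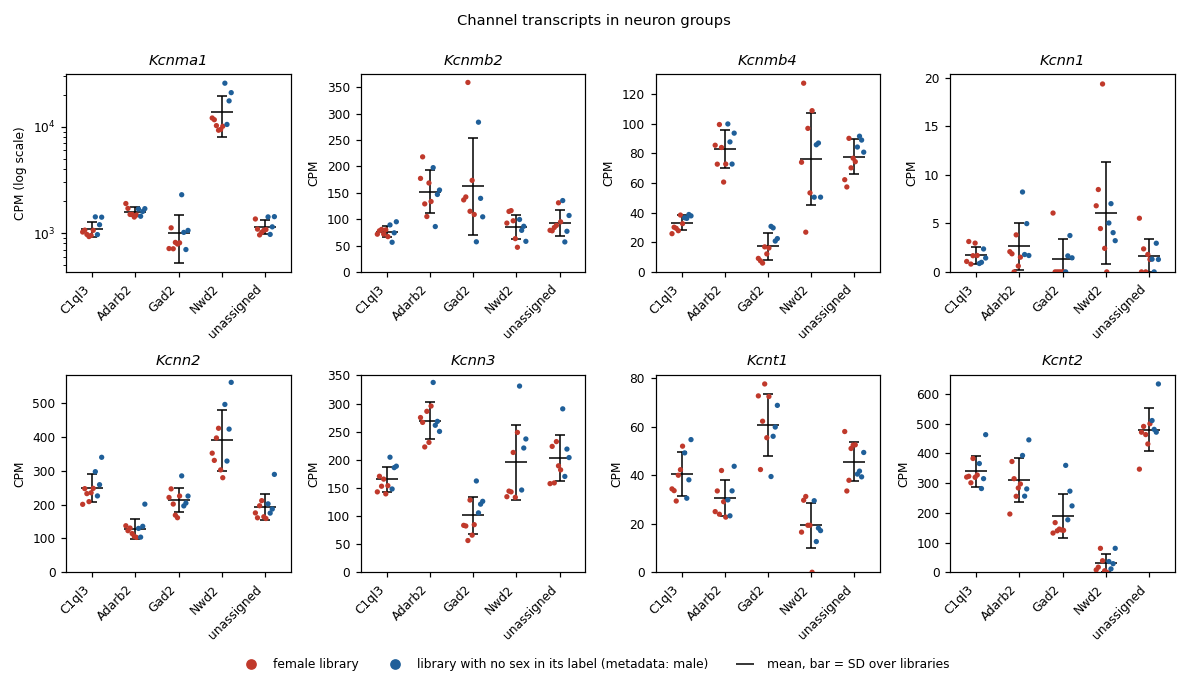
Level of each gene (CPM, y axis; log scale for Kcnma1) in the neuron groups (x axis), 1 point per library, with red for female libraries and blue for those whose label gives no sex; dashes are means and bars SDs over 10 libraries. Kcnma1 in the Nwd2 group runs from 9308 to 25814 CPM, above every point of the other groups, and Kcnt2 there runs from 0 to 80.4 CPM, below all of them.

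Within the C1ql3 group the question was whether its subtypes differ in the same channels. *Kcnma1*, so uneven between neuron groups, was called in no subtype, with 1210.5 ± 184 CPM in the unassigned nuclei, 1126 ± 169 CPM in the Col12a1, 1098 ± 225 CPM in the Cadps2 and 972 ± 169 CPM in the Npsr1 subtype. It differed below the fold limit: Npsr1 was under Cadps2 (adjusted p = 0.00014) and Col12a1 under the unassigned nuclei (adjusted p = 0.035). Col12a1 and Cadps2 were not told apart (adjusted p = 0.66). Against the mean CPM of the other subtypes, Npsr1 was lower and the unassigned nuclei higher in 10 of 10 libraries. The β subunits of the BK channel were called. *Kcnmb2* was 189 ± 35.8 CPM in the Col12a1 subtype (lowest 109.8, median 196, highest 227; log2 fold change 2.17, SE 0.07, adjusted p = 3e-41) and 16.0 ± 7.35 CPM in the Cadps2 subtype (lowest 6.03, median 13.8, highest 30.6; log2 fold change -2.67, SE 0.10, adjusted p = 2.2e-36). The lowest Col12a1 library was above the highest library of each other subtype, and the highest Cadps2 library was below the lowest of each. The unassigned nuclei and the Npsr1 subtype lay between them at 77.1 ± 9.14 CPM and 73.0 ± 16.6 CPM and were not told apart (adjusted p = 0.29). *Kcnmb4* was likewise least in the Cadps2 subtype, 14.3 ± 7.77 CPM (lowest 6.56, median 11.7 and highest 30.2 CPM; log2 fold change -1.56, SE 0.13, adjusted p = 1.7e-17), and was called higher in the unassigned nuclei, 41.6 ± 6.78 CPM (log2 fold change 0.83, SE 0.08, adjusted p = 4.6e-14). The Col12a1 and Npsr1 subtypes had 34.1 ± 11.4 CPM and 34.1 ± 9.94 CPM, with no call.

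*Kcnt2* split the subtypes into a high and a low pair. The Col12a1 subtype had 519.5 ± 66.6 CPM (lowest 434, median 502 and highest 674 CPM; log2 fold change 1.10, SE 0.05, adjusted p = 6e-34) and the unassigned nuclei 411 ± 60.7 CPM (log2 fold change 0.62, SE 0.04, adjusted p = 4e-23), whereas the Cadps2 subtype had 195 ± 32.5 CPM (log2 fold change -0.82, SE 0.05, adjusted p = 2.8e-24) and the Npsr1 subtype 187 ± 36.6 CPM (log2 fold change -0.90, SE 0.05, adjusted p = 7.1e-25). The high pair started at 334 CPM and the low pair ended at 244 CPM, and the Cadps2 and Npsr1 subtypes were not told apart (adjusted p = 0.55). *Kcnn2* ran from 332 ± 80.6 CPM in the Col12a1 subtype (log2 fold change 0.60, SE 0.05, adjusted p = 6.4e-19) through 271 ± 35.4 CPM in the unassigned nuclei and 241 ± 44.3 CPM in the Cadps2 subtype to 173 ± 38.7 CPM in the Npsr1 subtype (log2 fold change -0.67, SE 0.05, adjusted p = 2.5e-19). All Npsr1 libraries, up to 239.5 CPM, lay below all Col12a1 libraries, from 258 CPM. *Kcnn3* ranged from 129 ± 32.9 CPM (Npsr1) and 157 ± 28.1 CPM (Cadps2) to 183 ± 48.3 CPM (Col12a1) and 186 ± 18.7 CPM (unassigned), and *Kcnt1* from 39.6 ± 18.5 CPM (Col12a1) and 40.3 ± 8.67 CPM (unassigned) to 43.0 ± 11.2 CPM (Cadps2) and 49.3 ± 14.0 CPM (Npsr1), without a call for either gene. *Kcnn1* had 18 to 66 UMIs per subtype.

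Of the 7 members that passed the filter among subtypes, 3 were higher (background 6.32% of 9552 genes) and 0 lower (background 5.06%) in the Col12a1 subtype, with a median log2 fold change 0.45 against 0.00 over all genes tested. In the Cadps2 subtype 0 were higher (background 6.54%) and 3 lower (background 7.79%), with a median log2 fold change -0.07 against 0.00 over all genes tested. The Npsr1 subtype had 0 higher (background 4.74%) and 2 lower (background 4.02%), with a median log2 fold change -0.24 against 0.01 over all genes tested, and the unassigned nuclei had 2 higher (background 3.98%) and 0 lower (background 2.99%), with a median log2 fold change 0.26 against -0.01 over all genes tested. The 10 calls were also 10 in number without male 4, and 6 of them kept direction and call under every alternative run. Those for *Kcnn2* were lost when nuclei were sorted by their own marker UMIs (log2 fold changes 0.36 in the Col12a1 and -0.28 in the Npsr1 subtype), and *Kcnn2* in the Col12a1 subtype also fell just short with the female libraries only and in the Npsr1 subtype with a marker share of 0.25 (log2 fold changes 0.4996 and -0.30). In the unassigned nuclei *Kcnt2* lost its call with marker UMIs and with the members left in the clustering (log2 fold changes 0.48 and 0.4996), and *Kcnmb4* with the female libraries only (log2 fold change 0.49).

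**Figure D2:**
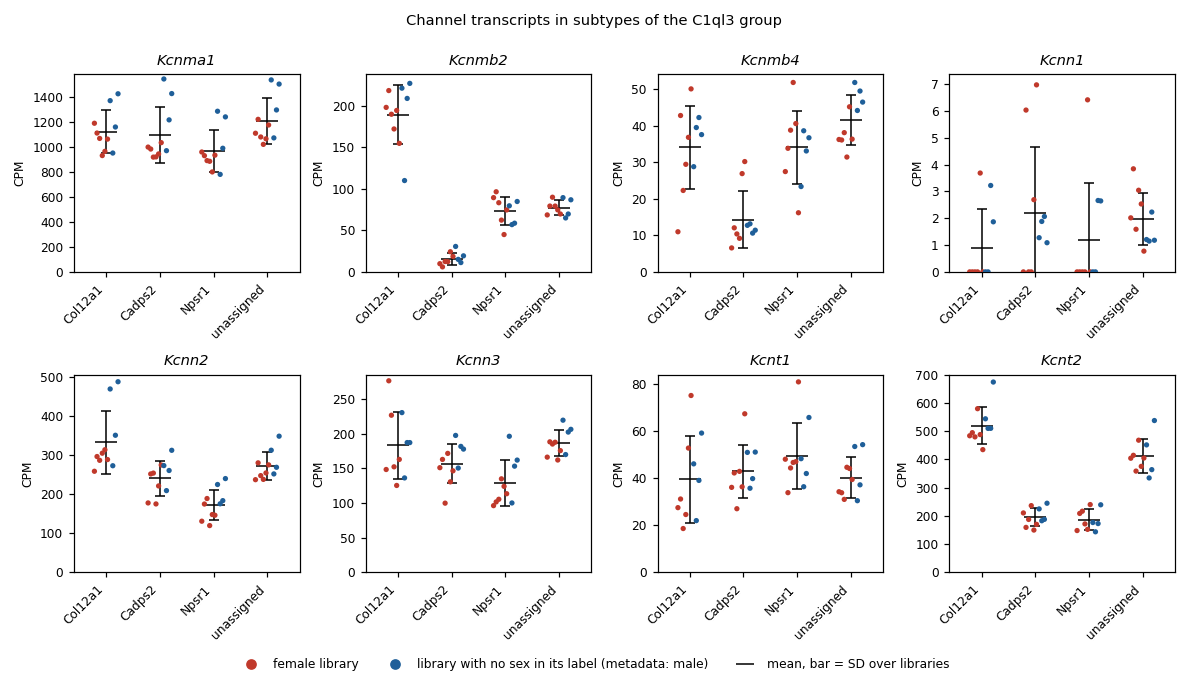
Level of each gene (CPM, y axis) in the subtypes of the C1ql3 group (x axis), 1 point per library, colours as for the neuron groups, with mean and SD over 10 libraries. Kcnmb2 is at 189 CPM in the Col12a1 and 16.0 CPM in the Cadps2 subtype without overlap, while the Kcnma1 points of all subtypes lie between 782 and 1547 CPM.

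The balance within each family was then compared as the share of the family's UMIs held by 1 gene, which is free of the total level of the family. Pairs of classes were tested by an exact two-sided sign-flip permutation test over libraries, 33 comparisons in all, adjusted together. The smallest p that 10 libraries allow is 0.002 before adjustment. After adjustment the smallest p reached was 0.0059, and 22 comparisons passed 0.05. *Kcnn2* made up 59.8% ± 2.45 of SK UMIs in the C1ql3 group, less in the Adarb2 group, 32.0% ± 5.49 (lower in 10 of 10 libraries, adjusted p = 0.0059), and less in the unassigned group, 48.5% ± 5.55 (adjusted p = 0.0059). It was more in the Gad2 group, 67.9% ± 6.67 (adjusted p = 0.0076), and in the Nwd2 group, 66.3% ± 6.02 (adjusted p = 0.035), each in 9 of 10 libraries. Among subtypes the SK balance ran from 57.1% ± 5.56 to 64.3% ± 6.27, where 1 of 6 pairs passed (Col12a1 against unassigned, adjusted p = 0.04).

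*Kcnmb2* held 69.5% ± 4.06 of the β-subunit UMIs in the C1ql3 group and 88.0% ± 9.37 in the Gad2 group (adjusted p = 0.0076), but 53.6% ± 13.3 in the Nwd2 group (adjusted p = 0.011) and 54.0% ± 7.53 in the unassigned group (adjusted p = 0.0059). The Adarb2 group, 63.8% ± 8.03, was not told apart from the C1ql3 group (adjusted p = 0.078, mean difference 5.67 points, SD of the differences 7.86). Among subtypes the share ran from 84.4% ± 6.25 (Col12a1) through 67.8% ± 10.0 (Npsr1) and 65.0% ± 4.33 (unassigned) to 52.9% ± 11.1 (Cadps2), and 5 of 6 pairs differed, all but Npsr1 against unassigned (adjusted p = 0.42). *Kcnt2* held 89.4% ± 1.47 of the sodium-activated UMIs in the C1ql3 group and much less in the Nwd2 group, 52.5% ± 20.4 over 9 libraries (adjusted p = 0.0076), and in the Gad2 group, 74.1% ± 8.35 (adjusted p = 0.0076). In the Cadps2 and Npsr1 subtypes its share, 81.9% ± 4.35 and 79.1% ± 3.44, was below that of the Col12a1 subtype, 92.9% ± 3.35, in 10 of 10 libraries (adjusted p = 0.0059 for both).

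**Figure D3:**
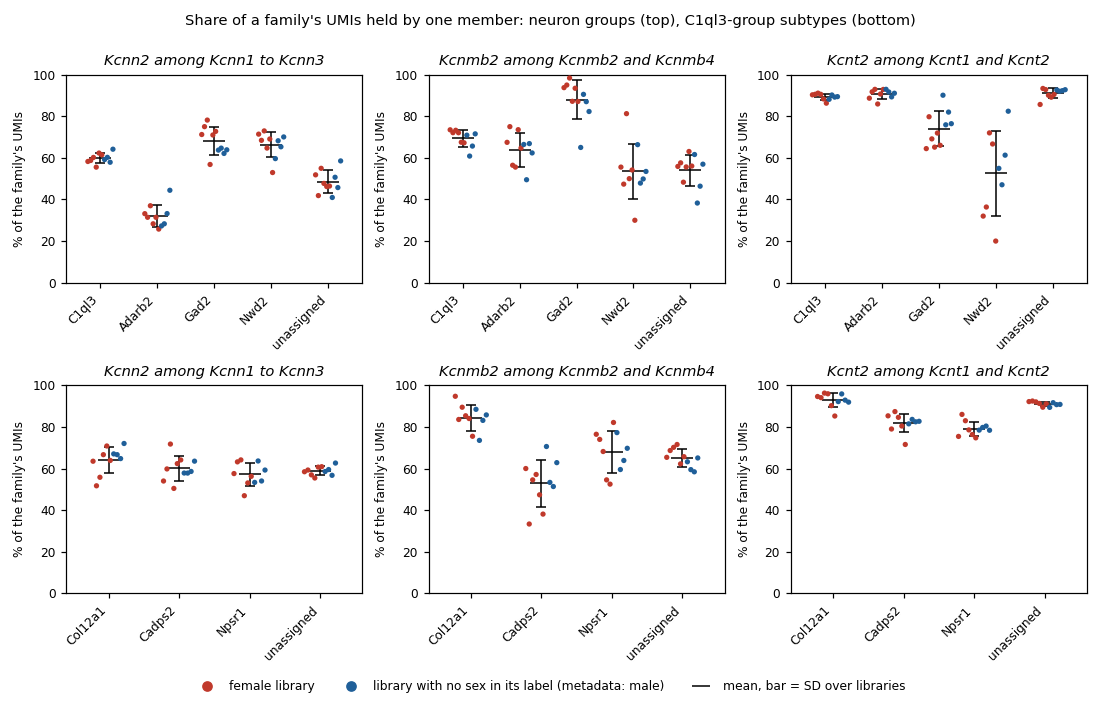
Share of a family's UMIs held by 1 member (%, y axis from 0 to 100) in neuron groups (top row) and in subtypes of the C1ql3 group (bottom row), 1 point per library, with mean and SD. Kcnn2 drops to 32.0% in the Adarb2 group, and Kcnmb2 runs from 84.4% in the Col12a1 to 52.9% in the Cadps2 subtype.

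Across the deposited cell types, sums per library and type of at least 10 nuclei were compared, each type with the mean of the 7 others, over 9842 genes. All 7 members that passed the filter were higher in neurons (background 34.8%), with a median log2 fold change 2.63 against 0.16 over all genes tested. *Kcnma1* was 2869 ± 1694 CPM in neurons (lowest 1642, median 2343 and highest 7160.2 CPM; log2 fold change 2.99, SE 0.13, adjusted p = 2.3e-32) and came next in ependymal cells, 739 ± 419.8 CPM over 9 libraries, and OPCs (oligodendrocyte precursor cells), 689 ± 223 CPM over 9 libraries, both called higher (log2 fold changes 0.65 and 0.81) and not told apart from each other (adjusted p = 0.62). The fit sets a type against the mean of log values, and against the mean CPM of the other types, which neurons dominate, *Kcnma1* was higher in 2 and lower in 7 of 9 libraries in ependymal cells and higher in 5 and lower in 4 of 9 in OPCs. Astrocytes and microglia had 523 ± 199 CPM and 497 ± 215 CPM, without a call. Endothelial cells, 193 ± 166 CPM over 7 libraries, fibroblasts, 184 ± 181 CPM over 8, and oligodendrocytes, 174 ± 70.5 CPM, were called lower.

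Astrocytes and neurons differed in the members they held. *Kcnn2* was highest in astrocytes, 706 ± 237 CPM (lowest 385, median 665, highest 1105; log2 fold change 3.22, SE 0.16, adjusted p = 8.2e-29), against 300.0 ± 58.3 CPM in neurons (log2 fold change 1.83, SE 0.17, adjusted p = 8.2e-16), and the 2 types differed (adjusted p = 7.2e-07). In each library the astrocyte level was at least 174% of the neuronal one. *Kcnt1* likewise led in astrocytes, 149 ± 33.7 CPM (log2 fold change 3.17, SE 0.14, adjusted p = 8.8e-33), over neurons, 52.0 ± 9.63 CPM (log2 fold change 1.44, SE 0.15, adjusted p = 3e-14; adjusted p = 1.3e-16 for the pair), and the lowest astrocyte library, 110.1 CPM, exceeded the highest neuronal one, 69.3 CPM. *Kcnn3* was 235 ± 46.0 CPM in neurons (log2 fold change 2.63, SE 0.13, adjusted p = 2.2e-29), 129.6 ± 42.0 CPM in astrocytes (log2 fold change 1.59, SE 0.15, adjusted p = 3.2e-15) and 128 ± 48.8 CPM in ependymal cells (log2 fold change 1.60, SE 0.19, adjusted p = 1.2e-11). The other 3 called members were lower in astrocytes: *Kcnt2* at 16.3 ± 18.9 CPM (log2 fold change -2.52, SE 0.27, adjusted p = 2.8e-13), *Kcnmb2* at 5.19 ± 2.93 CPM and *Kcnmb4* at 7.44 ± 4.22 CPM. So 3 of 7 members were higher (background 21.5%) and 3 lower (background 19.7%) there, with a median log2 fold change 0.21 against 0.00 over all genes tested. Accordingly *Kcnt2* made up 8.85% ± 7.64 of the sodium-activated UMIs in astrocytes and 88.8% ± 1.66 in neurons (adjusted p = 0.0059), and *Kcnn2* 83.6% ± 3.61 and 55.8% ± 3.32 of the SK UMIs (adjusted p = 0.0059).

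Outside neurons, both β subunits were called higher in ependymal cells, which line the ventricles, and *Kcnmb4* also in OPCs. *Kcnmb4* was 70.6 ± 28.6 CPM in ependymal cells (log2 fold change 2.09, SE 0.24, adjusted p = 1.1e-11), 63.3 ± 5.71 CPM in neurons (log2 fold change 2.05, SE 0.16, adjusted p = 4.6e-19) and 61.6 ± 26.1 CPM in OPCs (log2 fold change 2.08, SE 0.24, adjusted p = 3e-11), and these 3 were not told apart from their neighbours (adjusted p = 0.91 and 0.93). *Kcnmb2* was 125 ± 16.3 CPM in neurons (log2 fold change 2.87, SE 0.17, adjusted p = 5e-25) and 76.4 ± 32.2 CPM in ependymal cells (log2 fold change 1.97, SE 0.29, adjusted p = 1.2e-08), and was 50.8 ± 105 CPM in endothelial cells, 29.5 ± 26.1 CPM in fibroblasts and 11.2 ± 11.3 CPM in OPCs, none of them called higher, with 0 UMIs in 5 of 10 libraries of microglia. *Kcnt2* was 419.6 ± 96.4 CPM in neurons (log2 fold change 2.84, SE 0.17, adjusted p = 2.6e-25), 196 ± 91.0 CPM in fibroblasts (log2 fold change 1.49, SE 0.35, adjusted p = 0.00066) and 139.7 ± 55.3 CPM in OPCs (log2 fold change 0.97, SE 0.25, adjusted p = 0.0013), and the calls in the latter 2 were lost when only the 4 male libraries were used. *Kcnn1* was 14.6 ± 9.79 CPM in ependymal cells and 8.51 ± 6.12 CPM in OPCs, from 36 and 20 UMIs, and both were called in the fit without a filter (log2 fold changes 2.88 and 2.13, adjusted p = 1.1e-09 and 0.00051). The 194 endothelial nuclei of 7 libraries held 0 *Kcnn1* UMIs, which allows up to 4.63 CPM.

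Among the remaining types, ependymal cells had 4 members higher (background 26.7%) and 1 lower (background 19.2%), OPCs 3 higher (background 20.1%) and 0 lower (background 13.3%), and fibroblasts 2 higher (background 10.7%) and 2 lower (background 11.5%). The 2 in fibroblasts were *Kcnt2* and *Kcnt1*, the latter at 44.1 ± 38.8 CPM (log2 fold change 1.31, SE 0.39, adjusted p = 0.0092), and this call was lost without female 1 or without female 5 (log2 fold changes 1.06 and 0.95) and was -0.057 in the male libraries alone. Against the mean CPM of the other types, *Kcnt1* was higher in 2 and lower in 6 of 8 fibroblast libraries, and *Kcnt2* higher in 5 of 8. No member was higher in oligodendrocytes (background 20.5%), microglia (background 21.3%) or endothelial cells (background 17.4%), where 6, 5 and 3 were lower (background 26.2%, 29% and 22.9%). Free neuronal RNA can reach other nuclei, and the summed level of the 3 neuron markers had a median of 6.59% of the neuronal one in astrocytes, 10.3% in oligodendrocytes, 13.0% in microglia, 14.1% in ependymal cells, 15.3% in OPCs, 6.26% in endothelial cells and 20.1% in fibroblasts. By the same measure *Kcnma1* stood at 28.0% in microglia and 6.80% in oligodendrocytes, and *Kcnt2* at 38.0% in OPCs. In astrocytes *Kcnn2* and *Kcnt1* stood at 259.7% and 339%, *Kcnmb4* at 116% in ependymal cells and 110.1% in OPCs, and *Kcnn1*, from few UMIs, at 531% in ependymal cells, 387% in OPCs, 187% in astrocytes and 123% in oligodendrocytes. The part of free neuronal RNA in the non-neuronal values was not tested. There were 39 calls in all and 38 without male 4. Of the 39, 23 kept direction and call under every alternative run. In OPCs *Kcnma1* and *Kcnt2* lost their calls without the library as a block (log2 fold changes 0.62 and 0.83), and *Kcnma1* also with the male libraries only (0.57). In ependymal cells *Kcnma1* lost its call with sums of at least 30 nuclei (0.45). The lower calls for *Kcnmb4* in fibroblasts and *Kcnt1* in endothelial cells were lost under several runs, DESeq2 among them (-1.73 and -1.39).

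**Figure D4:**
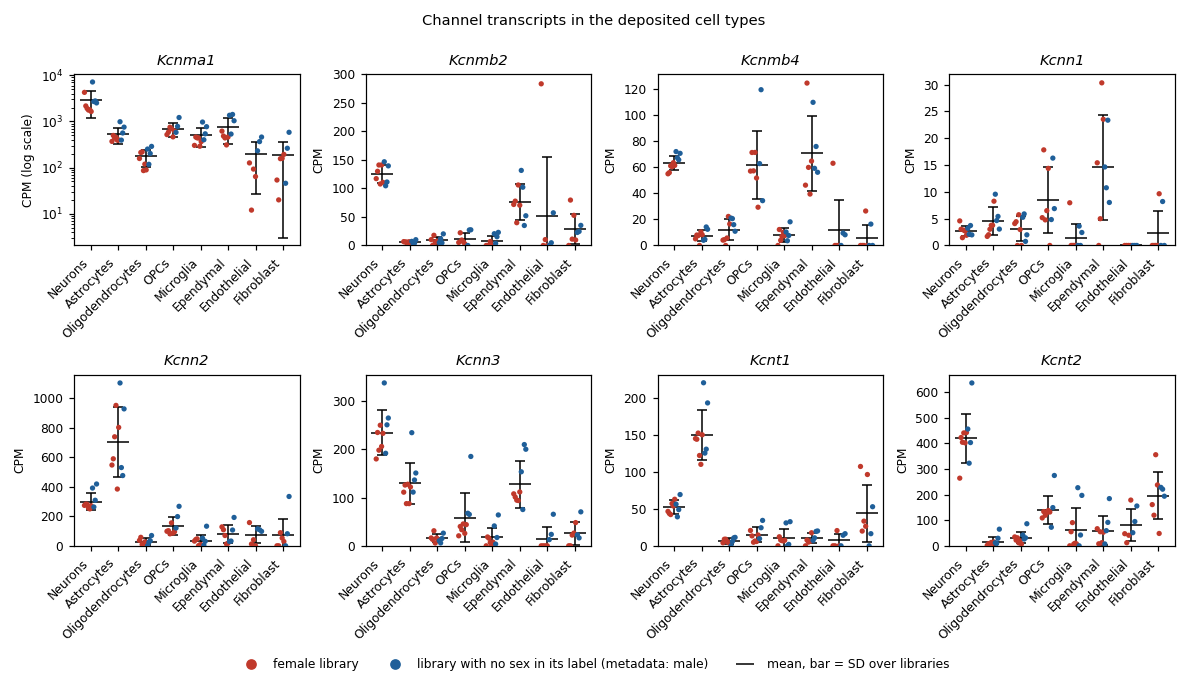
Level of each gene (CPM, y axis; log scale for Kcnma1) in the deposited cell types (x axis), 1 point per library with at least 10 nuclei of the type, colours as for the neuron groups, with mean and SD over these libraries. Kcnn2 and Kcnt1 are highest in astrocytes, at 706 and 149 CPM, and Kcnma1, Kcnmb2, Kcnn3 and Kcnt2 in neurons.

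The share of nuclei with at least 1 UMI, after each nucleus was thinned to 2000 UMIs, was set beside these levels, since it does not depend on a few nuclei with many UMIs. *Kcnma1* was detected in 86.1% ± 3.61 of C1ql3-group nuclei and 99.8% ± 0.283 of Nwd2-group nuclei, against 21.1% ± 8.57 of oligodendrocytes, which serve as background. *Kcnt2* was detected in 43.7% ± 4.14 of the C1ql3 and 3.77% ± 3.64 of the Nwd2 group, and the latter was at the level of oligodendrocytes, 3.65% ± 4.06. *Kcnn2* was detected in 36.5% ± 3.93 of the C1ql3 group and 58.7% ± 9.71 of astrocytes against 3.83% ± 3.40 of oligodendrocytes, and *Kcnmb2* in 27.4% ± 4.31 of the Col12a1 and 2.97% ± 1.00 of the Cadps2 subtype against 1.32% ± 1.40. *Kcnn1*, at 0.353% ± 0.187 of the C1ql3 group and 0.426% ± 0.448 of oligodendrocytes, was not above this background. Median depth before thinning was 11876 UMIs in the C1ql3 group, 7648 in the Nwd2 group and 2759 in oligodendrocytes, and 847 oligodendrocytes were too shallow to be used.

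The channels are gated by calcium or sodium, so 37 genes of their partners and ion sources were listed as well, of which 26 were tested among neuron groups. Of the 8 further channel subunits on the list only *Lrrc55*, a γ subunit that shifts the gating of the BK channel, passed the filter. It was 263 ± 87.9 CPM in the Nwd2 group (log2 fold change 5.09, SE 0.10, adjusted p = 2e-44), with a lowest library of 148 CPM, and at most 26.3 CPM in any library of the other groups, so that it shared the group of the BK pore. Of the 26 tested, 8 were higher (background 21.4%) and 9 lower (background 20.8%) in the Nwd2 group. The ryanodine receptor gene *Ryr2*, for calcium release from stores, was 885 ± 268 CPM (log2 fold change 3.53, SE 0.10, adjusted p = 1.1e-36), and the R-type calcium channel gene *Cacna1e* was 1788 ± 560.3 CPM (log2 fold change 2.47, SE 0.06, adjusted p = 3.2e-40). The P/Q-type gene *Cacna1a* at 45.5 ± 40.3 CPM, the N-type gene *Cacna1b* and the T-type gene *Cacna1g* were lower there (log2 fold changes -4.08, -3.65 and -3.10). In the Adarb2 group *Ryr3*, 1167 ± 171 CPM, *Cacna1g* and the L-type gene *Cacna1c* led (log2 fold changes 2.29, 1.68 and 1.61), while *Ryr2*, *Lrrc55* and the T-type gene *Cacna1i* were lower (log2 fold changes -3.93, -2.08 and -2.05).

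In the C1ql3 group 7 of the 26 tested were higher (background 11.5%), led by *Cacna1b*, *Cacna1g* and *Cacna1i* (log2 fold changes 0.76, 0.67 and 0.62), and 3 lower (background 6.63%), *Ryr3*, *Lrrc55* and *Calb1* (log2 fold changes -1.95, -0.87 and -0.59), the last encoding the calcium buffer calbindin. Another of the higher genes, *Cacna1a* (log2 fold change 0.61), named after its values were seen, was above the mean CPM of the other groups in 2 and below it in 8 of 10 libraries. The mean in the fit includes the Nwd2 group, whose low *Cacna1a*, *Cacna1b* and *Cacna1g* raise the fold changes of these genes in every other group. The Gad2 group had 7 higher (background 13.1%), led by *Ryr2* (log2 fold change 1.92), and 3 lower (background 8.15%), with *Cacna1c* the furthest (log2 fold change -1.17). Further genes higher in the Gad2 group were *Cacna1i* and *Itpr2* (log2 fold changes 1.14 and 0.99), and the other 2 lower ones were *Lrrc55* and the sodium channel gene *Scn8a* (log2 fold changes -0.77 and -0.51). *Cacna1a* and *Cacna1b* were also called higher in the Gad2 group. They were above the mean CPM of the other groups in only 6 and 4 of 10 libraries. In the unassigned group *Cacna1a*, *Cacna1b* and *Cacna1g* led the 5 higher (background 9.76%) genes (log2 fold changes 1.19, 1.10 and 1.10), and *Lrrc55*, *Ryr2* and *Itpr2* the 5 lower (background 5.44%) ones (log2 fold changes -1.38, -1.06 and -0.87). Of the 3 calmodulin genes, through which SK channels sense calcium, 1 was called in any neuron group, *Calm3* in the Nwd2 group (log2 fold change 0.98), a gene named after its values were seen. Among subtypes, 23 listed genes were tested. The Col12a1 subtype, with the most *Kcnmb2*, had 5 higher (background 6.32%), among them *Cacna1i*, *Calb1* and *Ryr3* (log2 fold changes 1.54, 1.43 and 0.97), and 2 lower (background 5.06%), *Ryr2* and *Cacna1e* (log2 fold changes -2.55 and -1.15). The Cadps2 subtype had 1 higher (background 6.54%), *Ryr2* at 274 ± 59.1 CPM (log2 fold change 2.35, SE 0.07, adjusted p = 4.4e-42), and 5 lower (background 7.79%), led by *Cacna1i*, *Calb1* and the inositol trisphosphate receptor gene *Itpr1* (log2 fold changes -1.89, -1.72 and -1.43). In the Npsr1 subtype *Ryr2* and *Cacna1e* were higher (log2 fold changes 1.70 and 0.92) and *Ryr3* lower (log2 fold change -1.49). In the unassigned nuclei *Cacna1i* and *Itpr1* were higher (log2 fold changes 0.82 and 0.61) and *Ryr2* lower (log2 fold change -1.51). *Ryr2* thus had 27.1 ± 15.8 CPM in the Col12a1 subtype, 36.5 ± 14.1 CPM in the unassigned nuclei and 201 ± 51.7 CPM in the Npsr1 subtype, and *Calb1* had 125 ± 35.9 CPM in the Col12a1 and 20.3 ± 5.21 CPM in the Cadps2 subtype. Among cell types, 24 listed genes were tested, of which 17 were higher (background 34.8%) and 4 lower (background 23.4%) in neurons, 1 higher (background 21.5%) and 12 lower (background 19.7%) in astrocytes, 13 higher (background 20.1%) and 3 lower (background 13.3%) in OPCs and 10 higher (background 26.7%) and 1 lower (background 19.2%) in ependymal cells.

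The genes whose level ran most like each member were taken by Pearson's correlation over 50 sums (10 libraries by 5 neuron groups, each centred within its library), among 10658 genes. They are a description, since the sums share libraries and groups. *Kcnma1* ran most like *Cnnm2* (r = 0.99), *Sema3e* (r = 0.98) and *Ap3s1* (r = 0.97). *Kcnt2* ran most like *Ldlrad4* (r = 0.98), *Fam189a1* (r = 0.98) and *Frmd5* (r = 0.97). *Kcnn2* ran most like *Gucy1a1* (r = 0.93), *Synpr* (r = 0.93) and *Cacna1e* (r = 0.93), the last of which is on the list of calcium genes. For *Kcnn3* the closest were *Lhfp* (r = 0.93), *Lef1* (r = 0.92) and *Grb14* (r = 0.91), for *Kcnmb4* *Vav3* (r = 0.87), *Bsn* (r = 0.87) and *Gpr4* (r = 0.87), and for *Kcnt1* *Rnf25* (r = 0.93), *5730522E02Rik* (r = 0.92) and *Matk* (r = 0.91). *Kcnmb2* had the lowest correlations, *St8sia4* (r = 0.74), *Shisa6* (r = 0.72) and *Slco3a1* (r = 0.66).

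Between the library sets, C1ql3-group sums of the 6 female and 4 male libraries were compared, over 13467 genes, of which 6.49% were called higher and 6.55% lower in female libraries. No member was called by edgeR. Of the 7 tested, 3 had an unadjusted p under 0.05, as did 3811 of all 13467 genes tested. DESeq2 called 0 as well. *Kcnma1* was 1001 ± 58.8 CPM (n = 6) in female and 1251 ± 214 CPM (n = 4) in male libraries (edgeR, log2 fold change -0.30, SE 0.10, adjusted p = 0.072). The log2 fold changes of all 7 members tested lay between -0.30 and -0.06. The log2 difference of *Kcnma1* between the Nwd2 group and the others was smaller in the female libraries, with a value of -0.53 for female minus male (edgeR interaction, adjusted p = 0.032): the group had 10506 ± 1164 CPM in female and 18747 ± 6419.6 CPM in male libraries. Male 2, at 10554 CPM, lay within the female range, and the 3 other male libraries lay above it. With sums over deposited astrocytes, *Kcnma1* was the 1 member called, lower in female libraries (log2 fold change -0.59, adjusted p = 0.049). Of all 9804 genes tested in these sums, 1359 were called in either direction. In the same sums the neuron markers stood at 14.9% and 20.6% of their neuronal level in male 3 and 4, at 5.74% and 6.27% in male 1 and 2 and at 4.36% to 11.6% in the female libraries, and their part in this difference was not tested.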

How the data were processed

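Single nuclei from tissue punches of 10 libraries (6 labelled female, 4 without a sex in their labels) were sequenced with 10x 3' chemistry. The authors aligned the reads to mm10 (Cell Ranger 6.1.1 in the submitters' processing notes, an earlier release in the methods), left out nuclei below 200 genes or above 5 percent mitochondrial UMIs, and deposited raw UMI counts per gene and nucleus with a metadata table. From that table the deposited library, cell type, sex and mitochondrial percent were used, and 21 other columns were not. The methods state that doublets were taken out before deposit, and none were called here.

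Libraries differed in depth, from 5119927 to 55956635 UMIs, and deeper libraries give less counting error. Neurons with more than 1000 genes were clustered on analytic Pearson residuals of 3000 variable genes (6 components, Harmony over libraries, 20 neighbours, Leiden resolution 0.3, leidenalg 0.10.2), and the C1ql3 group again (18 components, resolution 0.4). The 8 genes and the listed partner genes did not enter. Each cluster went to the marker with the largest share of its highest cluster, if at least 0.4. UMIs were summed per library and class (at least 10 nuclei) and tested with edgeR 4.0.16 (TMM, filterByExpr, quasi-likelihood test, library as a block, none between library sets) in R 4.3.3, with Benjamini-Hochberg adjustment over all genes tested. *Kcnn1* did not pass the filter, and its tests come from a fit without one. A count of 0 allows up to 3 UMIs, and this covers counting error only. Shared numbers between the 2 library sets did not pair them (correlations of deviations -0.09 to 0.07). Alternatives were other size factors, no filter, DESeq2 1.42.0, larger sums, each library or library set left out, no block, and other clusterings. Sums were also simulated, with genes changed in the Adarb2 group against the mean of the others. Changed genes that passed the filter were all called (50, 45, 50 and 41 genes at log2 folds of 1, -1, 2 and -2). Lowered genes that the filter removed are not in these counts. Of 10227 unchanged genes 0 were called. Smaller folds and differences between libraries other than depth were not simulated. The methods pool 4 mice per sample but count 4 replicates, so the unit behind each p-value is the library, whether pooled or not. Between classes, with the library as a block or paired, p-values measure how a class difference varies over libraries. Between the library sets they measure the spread of the libraries.

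Named genes are the 8 members, the markers of the classes, the 3 listed partners with the largest called change in each direction and, for each member, the 3 genes with the highest correlation. *Kcnn1*'s partner genes were not sought, since it did not pass the filter. The members and lists were chosen with earlier results of these data known. A marker check of the C1ql3 group is not reported here.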

Additional observations from a re-analysis of the deposited data

Results flagged for a closer look

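In 19 of 119 sets of values (1 gene in 1 class) the highest library lay far from the others by Dixon's test at the 95% level, where chance gives about 1 in 20, and 13 of these values came from male 4. For *Kcnt2* male 4 stood apart in neurons (636 CPM), astrocytes (64.9 CPM), oligodendrocytes (86.1 CPM), OPCs (275 CPM) and ependymal cells (184 CPM). For *Kcnn2* it stood apart in microglia (133 CPM), fibroblasts (335 CPM), the Adarb2 group (201 CPM) and the unassigned neuron group (289.6 CPM). For *Kcnn3* it stood apart in OPCs (185 CPM) and endothelial cells (65.5 CPM), and for *Kcnma1* in OPCs (1216 CPM) and fibroblasts (581 CPM). Neuron markers in male 4 reached 53.7% of their neuronal level in OPCs, and their part in these values was not tested.

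Male 1 was highest for *Kcnma1* in neurons (7160 CPM) and in the Gad2 group (2299 CPM), and for *Kcnn3* in astrocytes (235 CPM). Female 1 was highest for *Kcnmb2* (283.6 CPM) and *Kcnmb4* (63.0 CPM) in endothelial cells, and male 3 for *Kcnmb4* in OPCs (119 CPM).

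Of 119 differences tested between the female and the male libraries, 2 passed an adjusted p of 0.05 in edgeR's interaction test. How many of all genes passed the same test is not given here, so the 2 have no background beside them. The neuronal excess of *Kcnn3* was larger in female libraries by 1.72 on the log2 scale, and *Kcnn3* was at 0 UMIs in each of the 4 female endothelial sums. The effect of the Nwd2 group on *Kcnma1* differed by -0.53 (female minus male). The sets also differ in depth and annotation, which cannot be told apart from sex.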

How the results depend on the processing

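The number of member calls was 39 among cell types (28 to 43 over the alternatives), 22 among neuron groups (19 to 24), 10 among subtypes (8 to 11) and 0 between library sets. Sums over deposited astrocytes gave 1 between library sets, where 1359 of all 9804 genes tested were called. Leaving out 1 library at a time gave 38 to 40, 22 to 23, 10 and 0 calls. Of 1367 alternative values of the 71 called results, 1306 kept direction and call, 59 lost the call and 2 changed sign: *Kcnt1* in fibroblasts with the male libraries only (-0.057) and *Kcnmb4* in the unassigned neuron group when nuclei were sorted by marker UMIs (-0.11). Of the lost calls 43 were among cell types, 9 among neuron groups and 7 among subtypes. Leaving out 1 library accounted for 15, none of them among neuron groups or subtypes, and involved *Kcnt1* or *Kcnmb4* in microglia, endothelial cells or fibroblasts. The cause was not tested. Between library sets, a fit with the replicate number as a block (numbers that do not pair the libraries) gave 0 calls. Without the library as a block there were 37, 22 and 10 calls. Fibroblast sums rest on 10 to 35 nuclei a library and endothelial sums on 10 to 64, which limits what differences could be seen there.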
